A study of Mus musculus with 6 samples.

Results

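The complement system is a set of plasma and cell-surface proteins that tags particles and damaged cells for removal. It is started by C1q and its proteases (classical pathway), by sugar-binding collectins (lectin pathway) or by slow turnover of C3 that factors B and D amplify (alternative pathway). All routes meet at C3 and can end in a membrane pore built from C5 to C9, while inhibitors protect host cells. The liver makes most of the circulating proteins, and macrophages, fibroblasts and fat cells make several of them locally. The genes described here are 32 complement components, receptors and regulators, taken by symbol from a fixed list, out of 18476 genes in the table. All 32 were found.

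The samples are whole-tissue RNA libraries from femoral arteries of wild-type C57BL/6 mice, 3 days after wire injury. One group had received vasostatin-2, a fragment of chromogranin A, around the vessel, and the other had received saline the same way. Each group had 3 replicates, all 6 in 1 batch. Nothing in the labels says whether they came from separate mice, so p-values measure the spread between these samples, and neither age nor dose is stated there. Total estimated counts were between 19400272 and 19901763 in the vasostatin-2 libraries and between 19333730 and 20105995 in the saline libraries. Vascular smooth muscle cells are the labelled cell type, whereas the extraction protocol starts from the artery itself. Smooth muscle markers were present, and so was every marker listed for macrophages, fibroblasts, endothelium and fat cells. Libraries stood apart on some lists. The summed TPM (transcript abundance scaled for length and depth) of 5 red cell genes was 8704, 1406 and 1149 in vasostatin-2 replicates 1 to 3, and 7012, 43386 and 9491 in saline replicates 1 to 3. Skeletal muscle genes were at 1010 TPM in vasostatin-2 replicate 3 and between 62.1 and 106 TPM in the other 5 libraries. Nerve genes were at 903 TPM in saline replicate 3 and between 165 and 261 TPM elsewhere.

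None of the complement genes differed between groups at an adjusted p of 0.05. With p-values adjusted over all 14557 genes by Benjamini-Hochberg, the edgeR quasi-likelihood test called 0 of the 31 complement genes that passed the low-count filter, where the background share called was 0%. The lowest adjusted p among them was 0.601, for C1qc. Before adjustment, 3 were higher (C1qa, C1qb and C1qc) and 1 was lower (C1qbp) at p 0.05 in edgeR. The background at that level was 3.29% higher and 3.85% lower. DESeq2 called 0 of the 31, where it called 0.809% of the genes with a defined adjusted p. Groups were also compared in CPM (counts scaled for depth and by TMM factors, not for length). In 4 complement genes (C1qa, C1qb, C1qc and Cfb) the vasostatin-2 libraries were all above the saline libraries, and in 1 (C1qbp) all were below. The background shares were 6.07% and 6.72%. The 31 fold changes had a median of 0.08 on the log2 scale (18 above and 13 below 0), beside a median of −0.00068 and 49.8% above 0 over all genes tested. With whole-tissue RNA, fewer cells of a type and less RNA per cell cannot be told apart.

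**Figure D1:**
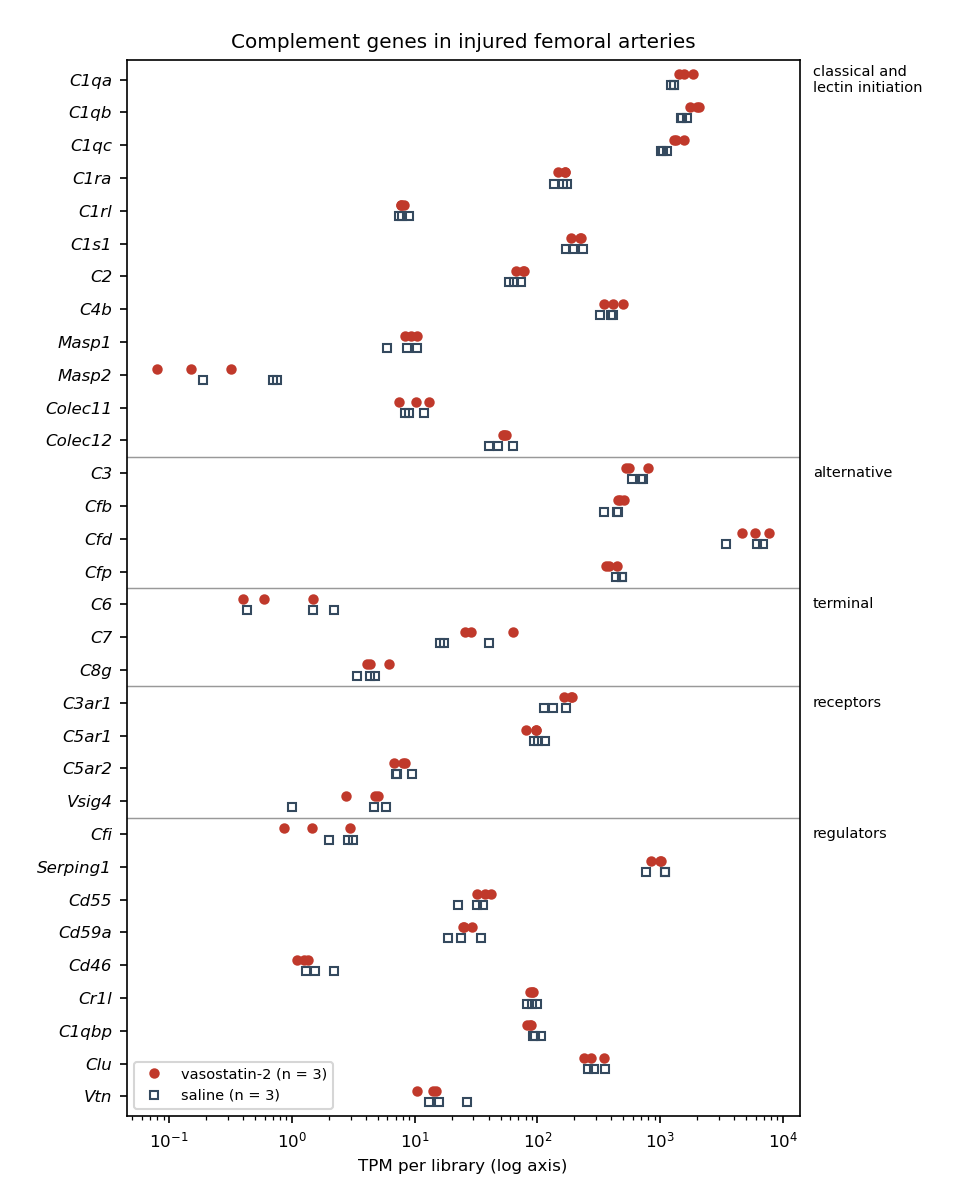
TPM of the 32 complement genes in each library, on a log axis, in the order of their roles. Filled circles are the 3 vasostatin-2 libraries and open squares the 3 saline libraries. Cfd and the C1q chains are the most abundant, and in the C1q rows the circles lie to the right of every square.

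The levels of these genes differed widely. Over all 6 libraries 4 genes averaged 1000 TPM or more (Cfd, C1qb, C1qa and C1qc), 9 lay from 100 to under 1000 TPM, 10 from 10 to under 100 TPM, and 9 under 10 TPM. Cfd ranked 9 among all genes of the table by mean TPM, and C1qb, C1qa and C1qc ranked 74, 100 and 118. Together the 32 genes summed to 16643, 13802 and 15483 TPM in vasostatin-2 replicates 1 to 3, and to 11507, 14151 and 15301 TPM in saline replicates 1 to 3. The groups overlapped in this sum. Without Cfd the other 31 genes summed to 8962, 9142 and 9573 TPM with vasostatin-2 and to 8047, 8037 and 8368 TPM with saline. These did not overlap, but Cfd was left out after the values had been seen. The means of that sum were 9226 TPM with vasostatin-2 and 8151 TPM with saline. Within it the C1q chains alone averaged 4957 TPM with vasostatin-2 and 3879 TPM with saline. By role, only the initiation group, which holds the C1q chains, did not overlap in summed TPM. Cfd made up 39.4 ± 6.28% of the 32-gene sum with vasostatin-2 and 39.5 ± 8.26% with saline. The C1q chains made up 32.6 ± 4.97% and 28.8 ± 4.40% of it (SD, n = 3 each).

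C1q, the recognition molecule of the classical pathway, is built from A, B and C chains encoded by 3 neighbouring genes and is made largely by macrophages and dendritic cells. On GRCm38.p6, by the deposited coordinates, they lie on the minus strand of chromosome 4: C1qb from 136880126 to 136886200, C1qc from 136889801 to 136892936 and C1qa from 136895916 to 136898844. The gaps between them are 3600 and 2979 bases, and no other gene of the table has its interval inside one. The deposited intervals of 5 other genes, Gm13201, Zfp534, Gm13035, Gm42355 and Zfp984, cover the whole cluster, gaps included. The 250 bases before the RefSeq start of C1qb and C1qc are shown because these are neighbouring genes whose values stood in the same order between groups. They are RefSeq promoter sequences of the same build, read 5′ to 3′ on the minus strand, at chr4:136886201-136886450 for C1qb and chr4:136892915-136893164 for C1qc. The RefSeq start of C1qc lies inside its deposited interval, so the last bases of that sequence as printed, from 136892915 to 136892936, belong to the gene by the deposited coordinates. C1qa had no entry in that promoter table. Capitals mark matches to GAGGAA, the core bound by PU.1 and other ETS factors, and to a loose form of the kappaB motif, GGGA and CC with any 4 bases between them, each searched on both strands.
C1qb: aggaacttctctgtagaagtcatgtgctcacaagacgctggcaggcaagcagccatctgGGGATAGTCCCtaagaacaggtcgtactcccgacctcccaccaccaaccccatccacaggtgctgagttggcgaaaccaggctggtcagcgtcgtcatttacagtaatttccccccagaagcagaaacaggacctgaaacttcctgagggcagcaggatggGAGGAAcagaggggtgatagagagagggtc
C1qc: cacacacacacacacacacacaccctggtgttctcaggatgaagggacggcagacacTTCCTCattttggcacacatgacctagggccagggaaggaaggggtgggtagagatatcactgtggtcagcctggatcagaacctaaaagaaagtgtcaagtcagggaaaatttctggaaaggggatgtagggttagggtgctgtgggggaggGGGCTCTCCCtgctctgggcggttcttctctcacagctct
GAGGAA occurred in both sequences, and in 23.3% of 32851 promoters over the same 250 bases. The kappaB form also occurred in both, and in 17.6% of promoters; in C1qb it matched on both strands at positions that overlap, which gives 1 longer run of capitals. The interferon-response element (ISRE) was present in 2.98% of promoters and TATAAA in 12.4%, and neither was in these 2 windows. Among the 23 complement genes with a promoter entry, 5 held GAGGAA and 7 held the kappaB form.

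C1qa was at 1425, 1576 and 1835 TPM in vasostatin-2 replicates 1 to 3, against 1299, 1286 and 1214 TPM in saline replicates 1 to 3. C1qb was at 1761, 2005 and 2076 TPM with vasostatin-2 and at 1473, 1657 and 1511 TPM with saline. C1qc was at 1292, 1353 and 1550 TPM with vasostatin-2 and at 1053, 1131 and 1015 TPM with saline. In all 3 genes the groups did not overlap, vasostatin-2 replicate 3 was the highest library, and vasostatin-2 replicate 1 was the one nearest to the saline libraries. The log2 fold changes were 0.35 for C1qa (SE 0.12), 0.34 for C1qb (SE 0.12) and 0.40 for C1qc (SE 0.11). The 95% intervals ran from 0.071 to 0.64, from 0.053 to 0.62 and from 0.12 to 0.67. The edgeR adjusted p values were 0.656, 0.681 and 0.601, and DESeq2 gave adjusted p values of 0.228, 0.254 and 0.0994. In the authors' deposited table the q-values were 0.263, 0.289 and 0.113. The chains are transcribed from 1 cluster and need one another for assembly, so they are not 3 independent observations. Their ratios to each other overlapped between groups. C1qb over C1qa was 1.21 ± 0.0733 with vasostatin-2 and 1.22 ± 0.0795 with saline, and C1qc over C1qa was 0.870 ± 0.0324 and 0.842 ± 0.0349 (ratios of TPM, SD, n = 3 each).

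**Figure D2:**
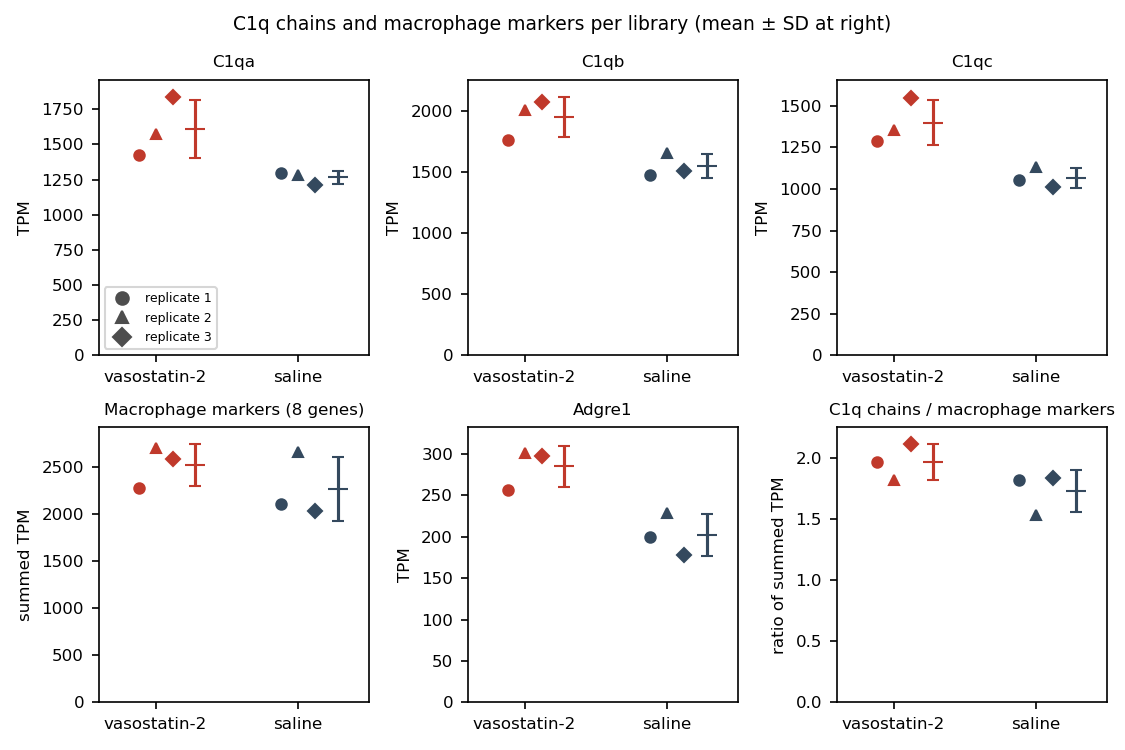
The upper panels give TPM of the C1q chains and the lower panels the summed TPM of 8 macrophage markers, TPM of Adgre1, and the ratio of summed C1q TPM to the marker sum. Symbols are replicates and the bars mean ± SD (n = 3). The groups are apart for the C1q chains and for Adgre1, and overlap for the marker sum and the ratio.

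Macrophage markers were compared because C1q is made by these cells. Of 8 markers, 5 had a log2 fold change above 0. The other 3 were below 0: Mrc1 (−0.05), Cd14 (−0.17) and Mertk (−0.27). The 8 summed to 2274, 2704 and 2579 TPM in vasostatin-2 replicates 1 to 3, against 2103, 2655 and 2031 TPM in saline replicates 1 to 3. None of the 8 was at 0 in any library. Their most abundant members were Cd68, a lysosomal glycoprotein, at 1206 ± 166 TPM with vasostatin-2 and 1061 ± 295 TPM with saline, and Csf1r, the receptor for macrophage growth factor. Adgre1, the F4/80 antigen, was at 257, 301 and 297 TPM with vasostatin-2 and at 200, 228 and 178 TPM with saline, with no overlap. Its log2 fold change was 0.50 (SE 0.14; edgeR adjusted p = 0.579, DESeq2 adjusted p = 0.0711). Fcgr1 also did not overlap in CPM, with a log2 fold change of 0.27 (SE 0.098; edgeR adjusted p = 0.681, DESeq2 adjusted p = 0.537). In TPM its groups overlapped. Of 5 markers of resident perivascular macrophages, 2 had fold changes above 0 and 3 below, with a median of −0.055 on the log2 scale. The summed C1q level divided by the marker sum was 1.97 ± 0.146 with vasostatin-2 and 1.73 ± 0.171 with saline, and divided by Adgre1 it was 17.4 ± 0.992 and 19.3 ± 1.58. Divided by Csf1r it was 12.2 ± 2.17 with vasostatin-2 and 10.3 ± 1.25 with saline. All these ratios overlapped between groups. As vasostatin-2 over saline, those to the marker sum and to Csf1r lay above 1, and that to Adgre1 below. These ratios were picked after the values had been seen, and the part of macrophage content in the C1q values was not tested.

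Downstream of C1q, the proteases C1r and C1s cleave C4 and C2 to form the classical C3 convertase. C1ra was at 169, 168 and 148 TPM in vasostatin-2 replicates 1 to 3 and at 162, 137 and 173 TPM in saline replicates 1 to 3. C1s1 was at 223, 226 and 189 TPM with vasostatin-2 and at 195, 170 and 234 TPM with saline. Both overlapped between groups, and both were highest in saline replicate 3 and lowest in saline replicate 2. The log2 fold changes were 0.05 for C1ra (95% interval −0.17 to 0.27) and 0.10 for C1s1 (95% interval −0.18 to 0.39). For C1s1 it was 0.034 without saline replicate 2 and 0.22 without saline replicate 3. C4b was at 501, 415 and 350 TPM with vasostatin-2 and at 324, 410 and 400 TPM with saline, and overlapped. C2 was at 77.7, 75.7 and 66.4 TPM with vasostatin-2 and at 64.0, 58.1 and 72.7 TPM with saline, a log2 fold change of 0.18 (SE 0.091; edgeR adjusted p = 0.720). Saline replicate 3 lay above vasostatin-2 replicate 3, so the groups overlapped there too. C1rl, a C1r-like protease, averaged 7.90 ± 0.197 TPM with vasostatin-2 and 8.11 ± 0.789 TPM with saline. The ratio of C1s1 to C1ra was 1.32 ± 0.0344 with vasostatin-2 and 1.27 ± 0.0765 with saline, and overlapped. Fibroblasts also make these proteases; of 6 fibroblast markers 5 had fold changes above 0 and none was at 0, and they summed to 6790, 6843 and 7689 TPM with vasostatin-2 and to 8904, 5036 and 6890 TPM with saline. Col1a1, a collagen chain, was the 1 marker below 0 and made up most of the sum, at 4320 ± 705 TPM with vasostatin-2 and 4876 ± 1772 TPM with saline. Pdgfra, Dcn and Lum did not overlap between groups in CPM, with log2 fold changes of 0.56, 0.45 and 0.71. In TPM Dcn and Lum did overlap. Saline replicate 3 lay above vasostatin-2 replicate 3 for Dcn (1554 against 1549 TPM) and for Lum (489 against 478 TPM). For Pdgfra, Dcn and Lum the edgeR adjusted p values were 0.458, 0.681 and 0.681, and those of DESeq2 were 0.0143, 0.293 and 0.216. Saline replicate 2 was lowest for the fibroblast sum too, and was the lowest library for 13 of the 31 genes. The part of fibroblast content in these values was not tested.

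Some of these genes share stretches of sequence with copies, and reads in those stretches cannot be assigned with certainty. In GENCODE M21 transcripts, 34.5% of the 100-base windows of C1ra also occur in C1rb, 7.90% of those of C1s1 in C1s2 and 16.5% of those of C4b in C4a. The levels listed for the copies were low: C1rb averaged 0.757 TPM with vasostatin-2 and 0.887 TPM with saline, and C4a 0.487 and 0.510 TPM. Windows of C2 (53.2%) and Cfb (81.0%) recur in Gm20547, a GENCODE gene that overlaps both. Among the regulators, 6.86% of the windows of Cd55 recur in Cd55b and 7.51% of those of Cr1l in Crry-ps. The C1q chains shared 0% of their windows with other genes. Among deposited intervals, those of Gm15854 and Klra9 cover C1rl, C1ra, C1s1 and C3ar1, that of Plcxd3 covers C6, and Rtp4, Tardbp and Fbxw5 overlap Masp1, Masp2 and C8g.

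Lectin-pathway genes were low or overlapping. Masp1, a protease of the collectin complexes, averaged 9.42 ± 1.09 TPM with vasostatin-2 and 8.35 ± 2.23 TPM with saline. Colec11, a secreted collectin, averaged 10.3 ± 2.80 TPM with vasostatin-2 and 9.75 ± 1.87 TPM with saline. Colec12, a membrane scavenger collectin, averaged 54.0 ± 1.60 TPM with vasostatin-2 and 50.6 ± 11.9 TPM with saline. Masp2, the protease that cleaves C4 on the lectin route, was the 1 gene that did not pass the low-count filter. Its estimated counts were 3.29, 1 and 2.44 in the vasostatin-2 libraries and 2.25, 12.8 and 11.7 in the saline libraries. Saline replicate 1 lay within the vasostatin-2 range, so the groups overlapped at counts near the floor of 3. Counting these 4, the initiation group had 11 of 12 genes tested, with 10 fold changes above 0 and 1 below, and a median of 0.16 on the log2 scale beside −0.00068 over all genes.

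**Figure D3:**
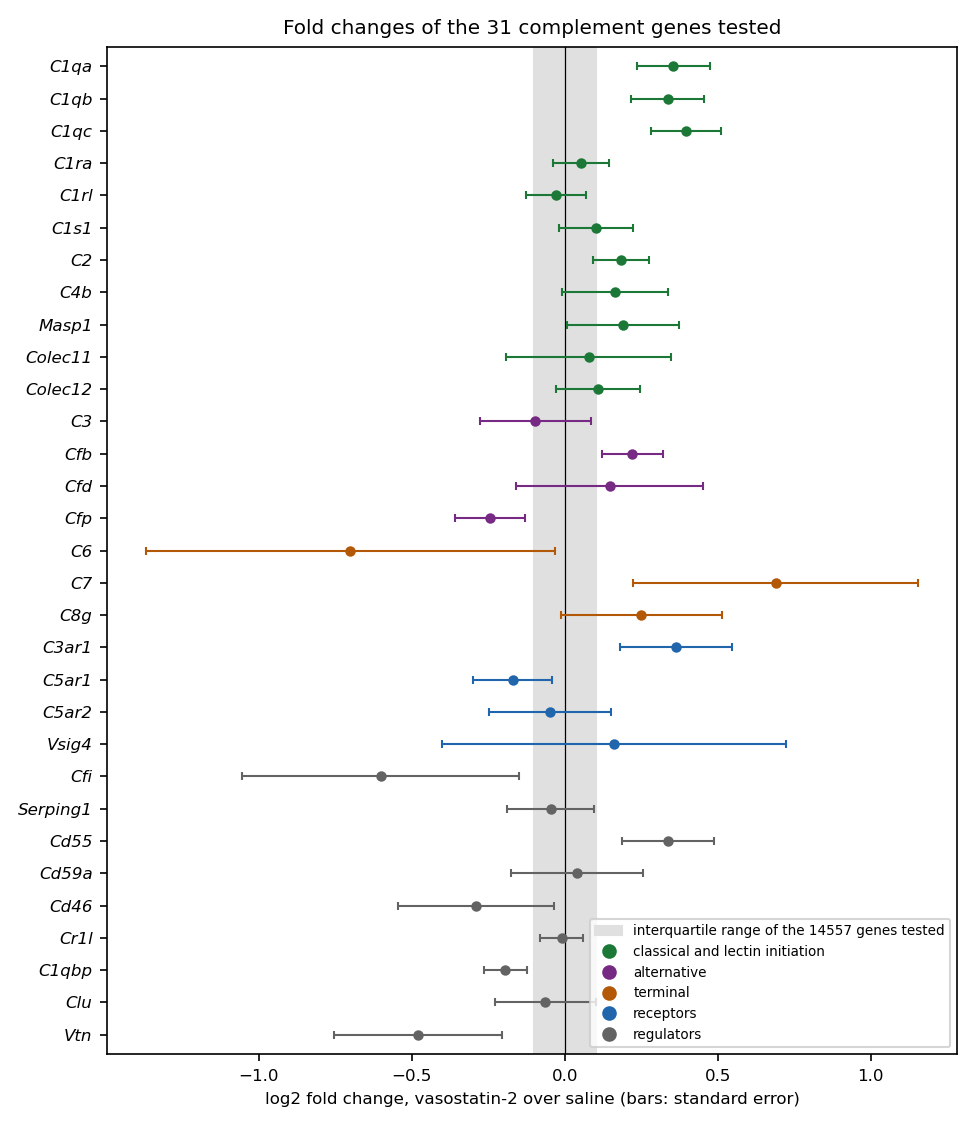
Log2 fold changes, vasostatin-2 over saline, for the 31 complement genes tested, with standard errors, coloured by role. The grey band is the interquartile range of the 14557 genes tested, from −0.10 to 0.10. The C1q chains lie to the right of the band, as do other genes, among them C7, C3ar1, Cd55 and Cfb. Others lie to its left, among them C6, Cfi and Vtn. The widest bars belong to C6, Vsig4, C7 and Cfi.

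Of C3 and the alternative-pathway genes, 2 had fold changes above 0 and 2 below. C3, the protein at which all routes meet, was at 795, 528 and 558 TPM in vasostatin-2 replicates 1 to 3 and at 591, 700 and 718 TPM in saline replicates 1 to 3. The saline libraries lay between the vasostatin-2 libraries, and the log2 fold change was −0.10 (95% interval −0.52 to 0.33). Cfb, the protease of the alternative C3 convertase, was at 456, 469 and 511 TPM with vasostatin-2 and at 450.1, 350.1 and 442 TPM with saline. The groups did not overlap, but replicate 1 was nearly level in both. Its log2 fold change was 0.22 (SE 0.10; edgeR adjusted p = 0.710). Cfb and C2 lie 87 bases apart on chromosome 17, from 34856374 to 34862514 and from 34862602 to 34882100 (GRCm38.p6). Cfp encodes properdin, which stabilises that convertase and is made by neutrophils and monocytes. It was at 359, 386 and 441 TPM with vasostatin-2 and at 432, 489 and 487 TPM with saline, a log2 fold change of −0.24 (SE 0.11; edgeR adjusted p = 0.710). Only vasostatin-2 replicate 3 reached the saline range. Beside it, all 6 neutrophil markers had fold changes below 0, and their summed level was 647, 215 and 302 TPM with vasostatin-2 and 869, 942 and 561 TPM with saline. None was at 0, and S100a9 and S100a8 were the most abundant. The order of the vasostatin-2 libraries differed, since replicate 1 was the highest for the neutrophil sum and the lowest for Cfp; the part of neutrophils in the Cfp values was not tested.

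Cfd, or adipsin, cleaves factor B and is a classical product of fat cells. It was at 7680, 4660 and 5911 TPM with vasostatin-2 and at 3460, 6114 and 6933 TPM with saline. The lowest library was saline replicate 1 and the highest vasostatin-2 replicate 1, and the groups overlapped (log2 fold change 0.15, 95% interval −0.58 to 0.87). The 5 adipocyte markers summed to 8543, 7193 and 6951 TPM with vasostatin-2 and to 4320, 9903 and 8249 TPM with saline, and none was at 0. Saline replicate 1 was lowest for both quantities. Cfd divided by Adipoq, the fat-cell hormone adiponectin, was 5.33 ± 0.940 with vasostatin-2 and 5.31 ± 0.234 with saline, and the part of fat content in the Cfd values was not tested.

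**Figure D4:**
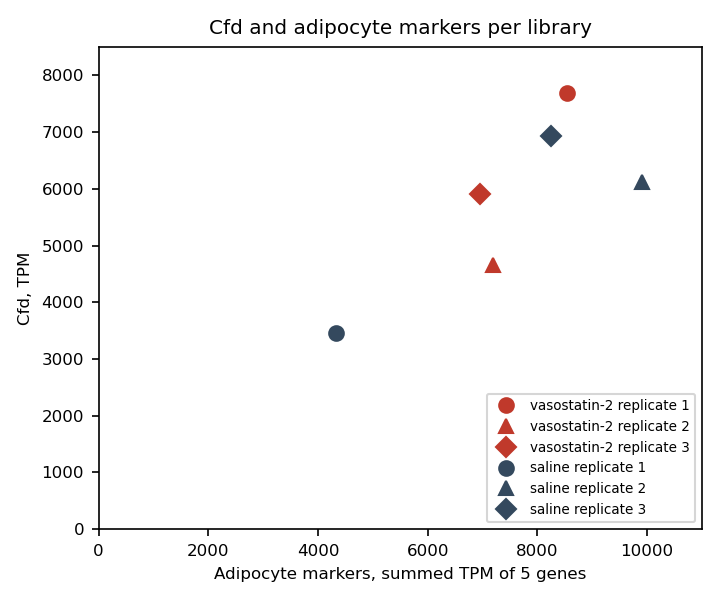
Cfd in TPM against the summed TPM of 5 adipocyte markers, 1 point per library. Saline replicate 1, at 3460 and 4320 TPM, lies apart at the lower left, and both groups span the rest of the plot.

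Of the terminal components that build the membrane pore, C7 was the most abundant. It was at 28.7, 63.2 and 25.8 TPM in vasostatin-2 replicates 1 to 3 and at 17.3, 16.0 and 40.6 TPM in saline replicates 1 to 3. A single library in each group stood high, vasostatin-2 replicate 2 and saline replicate 3, and the groups overlapped. Its log2 fold change of 0.69 (SE 0.47; edgeR adjusted p = 0.797) was 0.16 without vasostatin-2 replicate 2 and 1.23 without saline replicate 3. C8g was at 6.15, 4.10 and 4.36 TPM with vasostatin-2 and at 4.36, 3.37 and 4.76 TPM with saline, which overlapped. C6 was at 1.47, 0.400 and 0.590 TPM with vasostatin-2 and at 2.18, 0.430 and 1.48 TPM with saline, from 11 to 58 estimated counts per library. Its log2 fold change of −0.70 (SE 0.67) was −1.43 without vasostatin-2 replicate 1 and −0.21 without saline replicate 1. The partners of these proteins were near the floor: Hc, which encodes C5, averaged 0.210 TPM with vasostatin-2 and 0.337 TPM with saline. C9, the pore-forming subunit, was at 0, 0.06 and 0.11 TPM in vasostatin-2 replicates 1 to 3 and at 0, 0.71 and 0 TPM in saline replicates 1 to 3. C8a was listed at 0 TPM in every library but saline replicate 2, with at most 15 counts.

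The anaphylatoxin receptors C3ar1 and C5ar1 sense the small fragments C3a and C5a and are carried by myeloid cells. C3ar1 was at 165, 189 and 186 TPM in vasostatin-2 replicates 1 to 3 and at 134, 172 and 114 TPM in saline replicates 1 to 3. Only saline replicate 2 lay within the vasostatin-2 range. The log2 fold change was 0.36 (SE 0.18; edgeR adjusted p = 0.728), and it was 0.59 without saline replicate 2 and 0.22 without saline replicate 3 (adjusted p = 0.226 and 0.831; range over all alternatives 0.226 to 1.00). C5ar1 was at 80.5, 97.3 and 97.7 TPM with vasostatin-2 and at 93.6, 115 and 102 TPM with saline, a log2 fold change of −0.17 (SE 0.13; edgeR adjusted p = 0.818). Without saline replicate 2 it was −0.044. As a ratio within each library, C3ar1 over C5ar1 was 2.05, 1.95 and 1.91 with vasostatin-2 and 1.43, 1.495 and 1.12 with saline. The groups did not overlap in this ratio, which was picked after the values had been seen and carries no test. Set against macrophage markers the answer depended on the marker. C3ar1 over the sum of 8 markers was 0.0717 ± 0.00138 with vasostatin-2 and 0.0615 ± 0.00483 with saline, with no overlap, whereas C3ar1 over Adgre1 was 0.633 ± 0.00883 with vasostatin-2 and 0.688 ± 0.0605 with saline, and overlapped. C5ar2, a second C5a receptor, averaged 7.68 ± 0.855 TPM with vasostatin-2 and 7.87 ± 1.36 TPM with saline. Vsig4, a C3b receptor of resident macrophages, was at 4.75, 5.03 and 2.75 TPM with vasostatin-2 and at 4.64, 1.00 and 5.83 TPM with saline, with saline replicate 2 far below the rest. Its log2 fold change of 0.16 was −0.28 without that library.

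Among the 9 regulators 2 fold changes were above 0 and 7 below, with a median of −0.06 on the log2 scale. Serping1 encodes the C1 inhibitor, which blocks C1r, C1s and the MASPs. It was at 1010, 993 and 835 TPM in vasostatin-2 replicates 1 to 3 and at 1097, 770 and 1096 TPM in saline replicates 1 to 3, with no consistent side (log2 fold change −0.05, 95% interval −0.38 to 0.29). Its ratio to C1ra plus C1s1 was 2.53 ± 0.0460 with vasostatin-2 and 2.76 ± 0.289 with saline, and overlapped. Clu, or clusterin, a chaperone that keeps the terminal complex out of membranes, was at 271, 240 and 350 TPM with vasostatin-2 and at 288, 257 and 356 TPM with saline. Replicate 3 was the highest in both groups and the ranges nearly coincided. Vtn, or vitronectin, has a similar role and averaged 13.2 ± 2.37 TPM with vasostatin-2 and 18.5 ± 7.09 TPM with saline, where replicate 3 was at 26.5 TPM.

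C1qbp, a mostly mitochondrial protein that also binds the globular heads of C1q, was the 1 gene lower in every vasostatin-2 library. It was at 88.7, 81.4 and 86.2 TPM with vasostatin-2 and at 108, 91.3 and 96.3 TPM with saline. The libraries nearest to each other across groups were vasostatin-2 replicate 1 and saline replicate 2. Its log2 fold change was −0.19 (SE 0.071, 95% interval −0.36 to −0.025; edgeR adjusted p = 0.681). It lies on chromosome 11 from 70977846 to 70983026 (GRCm38.p6), and 88 bases of it overlap Rpain on the other strand. Whether counting used strand is not stated, so reads in that overlap cannot be assigned.

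The membrane-bound inhibitors of C3 convertases and of the pore differed in level. Cr1l, or Crry, the broadly expressed rodent inhibitor, was at 86.4, 91.1 and 90.2 TPM with vasostatin-2 and at 90.8, 81.5 and 99.5 TPM with saline. It had the smallest standard error of the 31 genes, and its log2 fold change was −0.01 (SE 0.070, 95% interval −0.18 to 0.16). Cd55, which speeds convertase decay, was at 32.1, 37.6 and 41.8 TPM with vasostatin-2 and at 31.9, 22.6 and 35.7 TPM with saline. Saline replicate 3 lay above vasostatin-2 replicate 1, and the log2 fold change was 0.34 (SE 0.15; edgeR adjusted p = 0.710). Without saline replicate 2 it was 0.21 (adjusted p = 0.537; range over all alternatives 0.517 to 1.00). Cd59a, the inhibitor of pore assembly, averaged 26.5 ± 2.31 TPM with vasostatin-2 and 25.9 ± 8.30 TPM with saline. Cd46, a cofactor that in mice is best known from the testis, averaged 1.23 ± 0.122 TPM with vasostatin-2 and 1.67 ± 0.452 TPM with saline. Cfi, the soluble protease that inactivates C3b and C4b, was at 2.95, 1.45 and 0.860 TPM with vasostatin-2 and at 2.88, 3.14 and 2 TPM with saline. Its log2 fold change of −0.60 (SE 0.45) was −1.20 when vasostatin-2 replicate 1 was left out and −0.28 when replicate 3 was. Cd46 and Cr1l overlap by 74 bases at their ends on opposite strands of chromosome 1, and Cd55 overlaps its copy Cd55b by 452 bases.

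**Figure D5:**
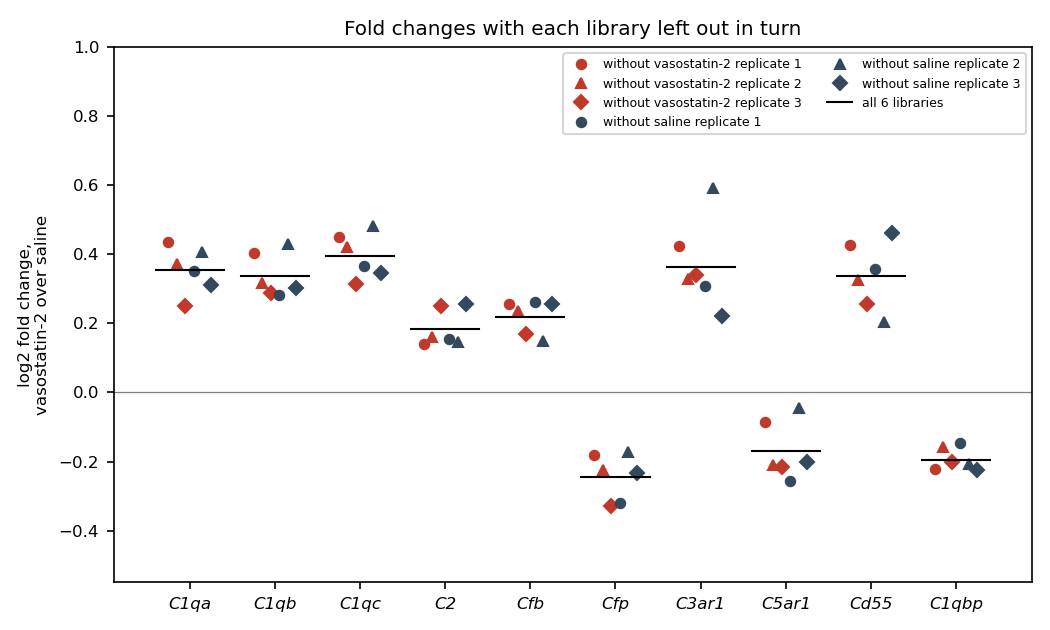
Log2 fold changes, vasostatin-2 over saline, of 10 complement genes with each library left out in turn (symbols) and with all 6 libraries (lines). Each of the 10 stayed on its side of 0 in all 6 leave-one-out fits, and C3ar1 spread the most of these, from 0.22 to 0.59. For C1qa, C1qb, C1qc, Cfb and C1qbp the groups did not overlap, so that side was fixed in advance. The 10 are a selection, and 11 of the 31 genes, none of them shown here, reversed in some refit.

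Leaving out single libraries changed the size of the C1q fold changes. Their side of 0 was fixed in advance by the lack of overlap, so these refits did not test it. C1qa ranged from 0.25 to 0.44, C1qb from 0.28 to 0.43 and C1qc from 0.31 to 0.48 on the log2 scale over the 6 fits, in each of which edgeR's adjusted p was above 0.05. C1qc had an unadjusted p under 0.05 in 6 of 6 of these fits, and C1qa and C1qb in 2 of 6 each. C1qbp ranged from −0.22 to −0.15 and had an unadjusted p under 0.05 in 3 of 6.

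A further list of 32 complement-related genes, none of them among those above, gave the rest of the pathway; 21 passed the filter, 9 with fold changes above 0 and 12 below, with a median of −0.05. At an unadjusted p of 0.05 edgeR gave 0 of the 21, and in CPM the groups overlapped in all 21. In TPM they did not overlap for Lrp1, a receptor that clears protease-inhibitor complexes, at 219, 205 and 218 TPM with vasostatin-2 and 204, 197 and 184 TPM with saline (log2 fold change 0.14, SE 0.10); it was singled out after its values were seen. Its most abundant members were Calr, a chaperone that also binds C1q, at 1314 ± 197 TPM with vasostatin-2 and 1369 ± 126 TPM with saline, and the subunits of complement receptor 3, Itgb2 and Itgam. Itgb2 was at 244 ± 20.7 TPM with vasostatin-2 and 281 ± 61.0 TPM with saline, and Itgam at 207 ± 27.7 TPM with vasostatin-2 and 208 ± 7.73 TPM with saline.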

How the data were processed

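Per the labels' protocols, RNA was extracted from injured arteries with TRIzol, mRNA was captured with oligo(dT), and sequencing used BGISEQ. Tools credited to the submitters' processing notes are HISAT2 2.1.0 and DESeq2 1.26.0, with build GRCm38.p6; the counting tool and strandedness are not given in the sources used here. The authors deposited, per gene, estimated counts (65.6% of them whole), TPM and FPKM for each library, their group means, and log2 fold changes with p-values and q-values from DESeq2; FPKM and the means were not used.

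Estimated counts were rounded to whole numbers, filtered with filterByExpr, which left 14557 of 18476 genes, and scaled by TMM (factors from 0.985 to 1.01). The quasi-likelihood test of edgeR 4.0.16 (R 4.3.3, robust) had treatment as its only term, with Benjamini-Hochberg adjustment over all genes tested; the standard error is the log2 fold change divided by the square root of its F statistic. Fold changes are vasostatin-2 over saline. TPM values are as deposited, and SDs are over 3 libraries, with 3 counts taken as the floor of detection (0.149 to 0.155 CPM before TMM scaling). Alternatives were other scalings and filters, DESeq2 1.42.0, and limma 3.58.1 on log2(TPM + 1) and with voom quality weights. Further ones were replicate number as a block, left-out libraries, and an adjusted p of 0.1 in the main edgeR fit. The genes and lists were chosen with earlier results of these data known. Values in every library are given for the C1q chains, the 2 genes of highest mean TPM in each group, and those at an unadjusted p of 0.05 or without overlap, and also for other genes where libraries differ. Replicate counts differed beyond sampling noise, so each library was counted once. The fitting was tested on simulated data. Figures were drawn with matplotlib 3.10.9 in Python 3.11.15.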

Additional observations from a re-analysis of the deposited data

How the results depend on the processing

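The call of 0 complement genes held under all alternatives run, and the smallest adjusted p of the 31 genes in any of them was 0.0994 (C1qc with DESeq2). The looser threshold of 0.1 was applied only to the main edgeR fit, where the lowest adjusted p was 0.601. With DESeq2, C1qc would pass that threshold. Over the whole table DESeq2 called 113 genes, and edgeR called 0 to 2 with 1 library left out. Of 496 refitted fold changes of the 31 genes, 474 kept their direction and 22 reversed, in 11 genes; 20 genes never reversed. With limma-voom C5ar2 was 0.10, and without both replicates 3 Serping1 was 0.10 and Cr1l 0.037. With 1 library left out the genes that reversed ranged from −0.0047 to 0.11 (C1ra), −0.062 to 0.026 (C1rl), −0.18 to 0.29 (Colec11), −0.30 to 0.029 (C3), −0.11 to 0.32 (Cfd), −0.15 to 0.18 (C5ar2), −0.28 to 0.59 (Vsig4), −0.17 to 0.035 (Serping1), −0.16 to 0.29 (Cd59a), −0.046 to 0.046 (Cr1l) and −0.23 to 0.064 (Clu). Without reversing, others moved by over 1.5 times: 0.034 to 0.22 (C1s1), 0.022 to 0.28 (C4b), 0.027 to 0.36 (Masp1), 0.0022 to 0.28 (Colec12), 0.050 to 0.36 (C8g), −0.40 to −0.057 (Cd46) and −0.69 to −0.15 (Vtn), beside those given above. Genes at an unadjusted p of 0.05, 3 higher and 1 lower with all libraries, were 7 with limma-voom, 3 of them lower; 2 were lower with limma on TPM and with only all-zero genes removed. With that filter Masp2 was also fitted (log2 fold change −2.10, unadjusted p = 0.0343, adjusted p = 0.794 by edgeR's quasi-likelihood test). It also passed the main filter without saline replicate 1 and without each vasostatin-2 replicate in turn. Counts and medians of all these fits are over 32 genes. Without both replicates 3 the number lower was 0. With 1 library left out the genes at an unadjusted p of 0.05 numbered 1 to 6 (1 to 4 higher, 0 to 3 lower). Genes whose groups did not overlap numbered 14 without both replicates 3 (11 higher, 3 lower) and 5 to 10 with 1 library left out (4 to 9 higher, 1 to 5 lower), where fewer samples make overlap less likely. The median log2 fold change over the complement genes tested, 0.08 with all libraries, was 0.19 without both replicates 3 and 0.19 without saline replicate 3. It was 0.020 to 0.19 over the left-out libraries, and the cause was not tested. With replicate number as a block 5 genes were higher at an unadjusted p of 0.05 and no gene was called. Pairing of the libraries by number was not seen: deviations of same-numbered libraries correlated at −0.119, 0.0251 and 0.0273 across genes. With 3 libraries per group these correlations cannot exclude it. Depth limited C6, Cfi, Cd46, C8g, Vsig4 and Masp2, each with at most 78 estimated counts in any library.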
